A study of Mus musculus with 14 samples.

Results

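T cell receptor (TCR) signalling genes were read in 4 groups of mouse regulatory T cells (Tregs), the suppressive CD4+ lineage that the factor Foxp3 defines. The genes were chosen by name, as 38 widely known components of the pathway, and each was read as the transcript cluster of that symbol on the Clariom S array. All 38 were found among the 21902 gene symbols tested, each as 1 transcript cluster, so that no choice between probe sets was needed. By the direction in which each product is known to act, 25 were taken as activators, 10 as brakes and 3 (Themis, Sh2d2a and Cd6) as genes with both roles.

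The cells came from lymphoid tissue of mixed bone marrow chimeras, given as the spleen with peripheral lymph nodes in the series' design text and as the spleen alone in the study's text. CD45.2+ marrow of Foxp3Cre Atg14+/fl donors (labelled heterozygous, the control) or of Foxp3Cre Atg14fl/fl donors (labelled Atg14 knockout, KO) was mixed 1:1 with CD45.1+ wild-type marrow and given to sublethally irradiated Rag1-/- hosts, which have no mature T or B cells of their own, and the hosts were used after 6 to 8 weeks. Donors of both genotypes carried the Foxp3-driven Cre, which is designed to act in cells that have switched on Foxp3. The study's methods add that some Foxp3Cre Atg14fl/fl mice carried a null Atg14 allele, without naming the experiments. Control cells also carried 1 loxP-flanked Atg14 allele. The sort used surface markers to split central Tregs (cTregs), with little CD44, from effector Tregs (eTregs), with much of it, which gave 4 arrays of control cTregs, 3 of KO cTregs, 4 of control eTregs and 3 of KO eTregs. The numbers of arrays equal the numbers of control and KO chimeras that the study's text gives for this experiment, so arrays of a group were taken to be separate hosts, although the labels name no host. Tests were made with limma over 22203 transcript clusters, and "called" means an adjusted P below 0.05 (Benjamini-Hochberg over all of them). The study threshold, used beside it, asks for an unadjusted P below 0.05 and a log2 change of at least 0.5 in size.

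The TCR itself has no enzyme activity. When it binds its ligand, the kinase Lck, brought in by the coreceptor CD4, phosphorylates the CD3 and zeta chains, Zap70 docks on them, and the adaptors Lat and SLP-76 (the product of Lcp2) gather the enzymes that raise calcium and diacylglycerol. From there the signal runs to NFAT through calcineurin, to NF-kB through a complex that holds Bcl10 and Malt1, and to the Ras and MAP kinase route. Tregs depend on continued TCR signals to become and stay effector cells, and phosphatases, ubiquitin ligases and diacylglycerol kinases hold the pathway back at each level.

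Libraries were checked first. Correlations between arrays lay between 0.962 and 0.994. Atg14 was not lower in the arrays labelled KO. Its log2 signal in eTregs was 9.16 ± 0.16 (SD, n = 3) with the KO label against 8.84 ± 0.16 (SD, n = 4) without it, and in cTregs 9.29 ± 0.042 (SD, n = 3) against 8.94 ± 0.26 (SD, n = 4), so KO is used below only as a label. Whether its probes read the deleted part was not analysed here. The study reports that quantitative PCR verified the deletion of Atg14 in sorted Tregs of Foxp3Cre Atg14fl/fl mice, without naming these chimeras. Foxp3 lay between 12.73 and 13.12 on all 14 arrays, whereas Il2ra, another defining Treg gene, lay between 6.94 and 8.44. The mean of a fixed list of 5 Treg markers that holds both was 11.24 to 11.70 over all arrays. The arrays of KO eTregs stood apart from each other. All 12 monocyte and macrophage markers of a fixed list exceeded every cTreg array on KO eTreg 2 and KO eTreg 3 (C1qa at 12.10 and 12.18, C1qb at 11.19 and 11.14), and 5 of 12 did so on KO eTreg 1 and between 5 and 9 on control eTregs. The mean of the 12 was 8.72 to 9.08 in control eTregs, 7.99 to 8.16 in control cTregs, 8.16 to 8.24 in KO cTregs, and 8.39 on KO eTreg 1 against 10.45 and 10.48 on KO eTreg 2 and 3. Of 7 dendritic cell markers, 5 and 6 exceeded every cTreg array on KO eTreg 2 and 3, and 2 or 3 did on the other eTreg arrays. The mean of 5 B cell markers was 8.66 and 8.69 on KO eTreg 2 and 3 and at most 8.54 elsewhere, and that of 5 neutrophil markers was 7.55 and 7.54 there, above every other array. The mean of 6 CD8 T and NK cell markers was 8.74 and 8.55 on these arrays and 8.31 on KO eTreg 1, where control eTregs had 7.97 to 8.50, and 4 erythroid markers had means of 8.49 to 9.23 over all arrays. KO eTreg 1 in turn lay nearer to cTregs. The mean of 4 eTreg markers (Cd44, Icos, Tigit and Klrg1) was 9.99 on it, 11.00 and 10.83 on KO eTreg 2 and 3, 10.69 to 11.26 in control eTregs and at most 8.88 in cTregs. In control eTregs, 11 of the 12 monocyte and macrophage markers were higher than in control cTregs, with a median of 0.59 over the list and none called. In eTregs of both labels, fewer Tregs in a sample and less RNA of a gene per Treg therefore cannot be told apart. For a gene that other cells also make, more RNA per Treg and RNA of those cells cannot be told apart either. Values without KO eTreg 2 and 3 rest on KO eTreg 1 alone. Leaving both out moved a difference between KO eTregs and KO cTregs by a median of 0.098 over the 38 members, by at most 0.38, and changed its sign for 9 of 38, none of them called. Such values are given below for the members called and for some others. Of the rest, Ptpn6 went from -0.05 to -0.28 and Nfkb1 from -0.01 to -0.22. Dgka went from -0.11 to 0.07 and Themis from -0.11 to 0.05.

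Nearly all members were bright. Of the 38, 37 had a mean signal above the 75th percentile of all transcript clusters and 32 above the 90th. The lowest was Bcl10, at the 63.4th percentile. Within a group, the members had a median SD of 0.082 to 0.13, beside 0.14 to 0.19 for all transcript clusters, so small differences in signal could be resolved. Whether signal follows the amount of RNA in genes this bright was not tested. The half-width of the 95% interval had a median of 0.21 for the subset difference in controls and of 0.23 for each genotype difference, on the log2 scale.

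The first question was whether components of the pathway change in expression as control cTregs become eTregs. Most components lay within a narrow band, and 3 genes rose. In controls, 3 of the 38 members were called, where 3.58% of all transcript clusters were, and these were Nfatc1, Malt1 and Ptpn22, all higher in eTregs. No member fell at this threshold. At the study threshold 1 of 38 passed, Nfatc1, against 4.72% of all. For 32 of 38 the 95% interval lay wholly within a change of 0.5 either way, which held for 75.1% of all transcript clusters. The array values of the groups were fully separated, with eTregs higher, for 6 of 38, against 6.12% of all, and with eTregs lower for 4, against 5.02%. The median change was -0.01 for the 25 activators and -0.02 for the 10 brakes, beside 0.00 over all transcript clusters.

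**Figure D1:**
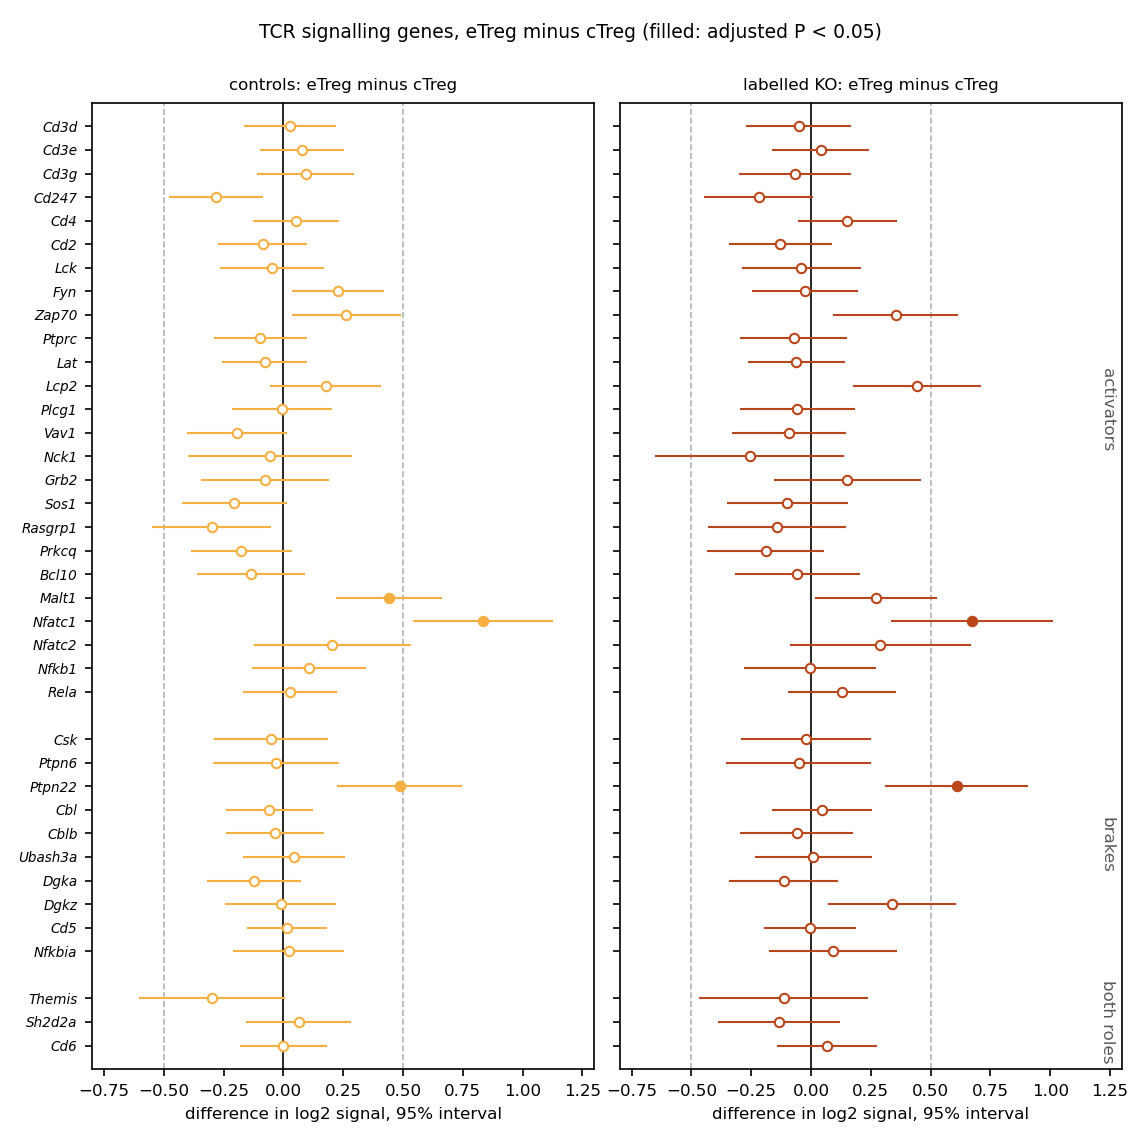
Difference in log2 signal between eTregs and cTregs for each of the 38 genes, with its 95% interval, in controls (left) and in arrays labelled KO (right). Filled points have an adjusted P below 0.05 (Nfatc1, Malt1 and Ptpn22 in controls, Nfatc1 and Ptpn22 in arrays labelled KO), dashed lines mark 0.5 either way, and most intervals include 0.

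Nfatc1 encodes a calcineurin-dependent transcription factor that enters the nucleus after TCR ligation. Its log2 signal (TC1800001665.mm.2) was 11.10, 11.01, 11.10 and 11.10 on control cTregs 1 to 4 and 11.74, 12.01, 11.97 and 11.93 on control eTregs 1 to 4. Every control eTreg array was thus above every control cTreg array, and by far more than the range within a group. The rise was 0.84 ± 0.14 (SE), or 1.78-fold (limma, adjusted P = 0.00176), and it was called in every alternative tried. With the KO label the values were 10.45, 11.13 and 11.18 in cTregs and 11.51, 11.72 and 11.54 in eTregs, a rise of 0.67 ± 0.16 (SE), or 1.60-fold (limma, adjusted P = 0.0320). KO cTreg 1 was the lowest array. Without it the rise was 0.44 (adjusted P = 0.0779), without KO eTreg 2 it was 0.61 (0.138), without KO eTreg 3 it was 0.70 (0.0990), and without both of those eTreg arrays it was 0.60 (0.474, where the lone KO eTreg array is assumed to vary like the other groups).

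Its relative Nfatc2 gave no call. The means were 10.28 ± 0.25 (SD, n = 4) in control cTregs and 10.49 ± 0.14 (SD, n = 4) in control eTregs, a difference of 0.20 with a 95% interval of -0.12 to 0.53. Probe sets of the 2 genes are not compared in level.

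Malt1, the paracaspase that carries the signal to NF-kB, had a log2 signal of 11.76, 11.62, 11.67 and 11.65 on control cTregs 1 to 4 and of 12.02, 12.19, 12.10 and 12.17 on control eTregs 1 to 4, with no overlap. The rise was 0.44 ± 0.10 (SE), or 1.36-fold (limma, adjusted P = 0.0219). It narrowly lost its call without control cTreg 2, 3 or 4 or control eTreg 2, 3 or 4, with adjusted P between 0.0572 and 0.0771 and a rise of 0.42 to 0.45, and also with array medians subtracted (0.0723). On KO arrays, Malt1 read 11.67, 11.70 and 11.93 in cTregs and 11.84, 12.03 and 12.25 in eTregs. Here the groups overlapped, and the difference of 0.27 was not called (limma, adjusted P = 0.315). It was 0.07 without KO eTreg 2 and 3. KO eTreg 1, the array with few macrophage markers, was the lowest of the 3 eTreg arrays. The interaction for Malt1 was -0.17 with a 95% interval of -0.50 to 0.16, so a difference between the genotypes in this rise was not detectable here. The same interaction was -0.37 without KO eTreg 2 and 3 (limma, adjusted P = 0.769).

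Of its partners, Bcl10, which forms the filaments on which Malt1 acts, differed by -0.13 between control eTregs and cTregs, with a 95% interval of -0.36 to 0.09. The NF-kB subunits Nfkb1 and Rela differed by 0.11 and 0.03. The inhibitor Nfkbia, itself an NF-kB target and counted here as a brake, differed by 0.02.

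Ptpn22, a phosphatase that removes activating phosphates from Lck and Zap70, was the only called brake. Its log2 signal (TC0300001064.mm.2, chromosome 3 by its identifier) was 11.79, 11.80, 11.99 and 11.83 on control cTregs 1 to 4 and 12.09, 12.38, 12.51 and 12.37 on control eTregs 1 to 4. The lowest control eTreg array was above the highest control cTreg array. The rise was 0.49 ± 0.12 (SE), or 1.40-fold (limma, adjusted P = 0.0340). It lost its call without control cTreg 1, 2 or 4 or control eTreg 2, 3 or 4 (adjusted P between 0.0892 and 0.124, rise of 0.43 to 0.48) and with array medians subtracted (0.0980). Arrays labelled KO read 11.48, 11.43 and 11.91 in cTregs and 12.09, 12.24 and 12.33 in eTregs, again without overlap. This rise was 0.61 ± 0.14 (SE), or 1.52-fold (limma, adjusted P = 0.0285). Leaving out KO cTreg 1 gave 0.55 (0.111) and leaving out KO cTreg 2 gave 0.52 (0.115). Dropping KO eTreg 2 gave 0.60 (0.103), dropping KO eTreg 3 gave 0.55 (0.140), and dropping both gave 0.48 (0.540).

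Neither of the other inhibitory enzymes of its group was called. Csk, the kinase that places the inhibitory phosphate on Lck and binds Ptpn22, differed by -0.05 in controls (95% interval -0.28 to 0.18), and Ptpn6, the phosphatase SHP-1, by -0.03 (-0.29 to 0.23).

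**Figure D2:**
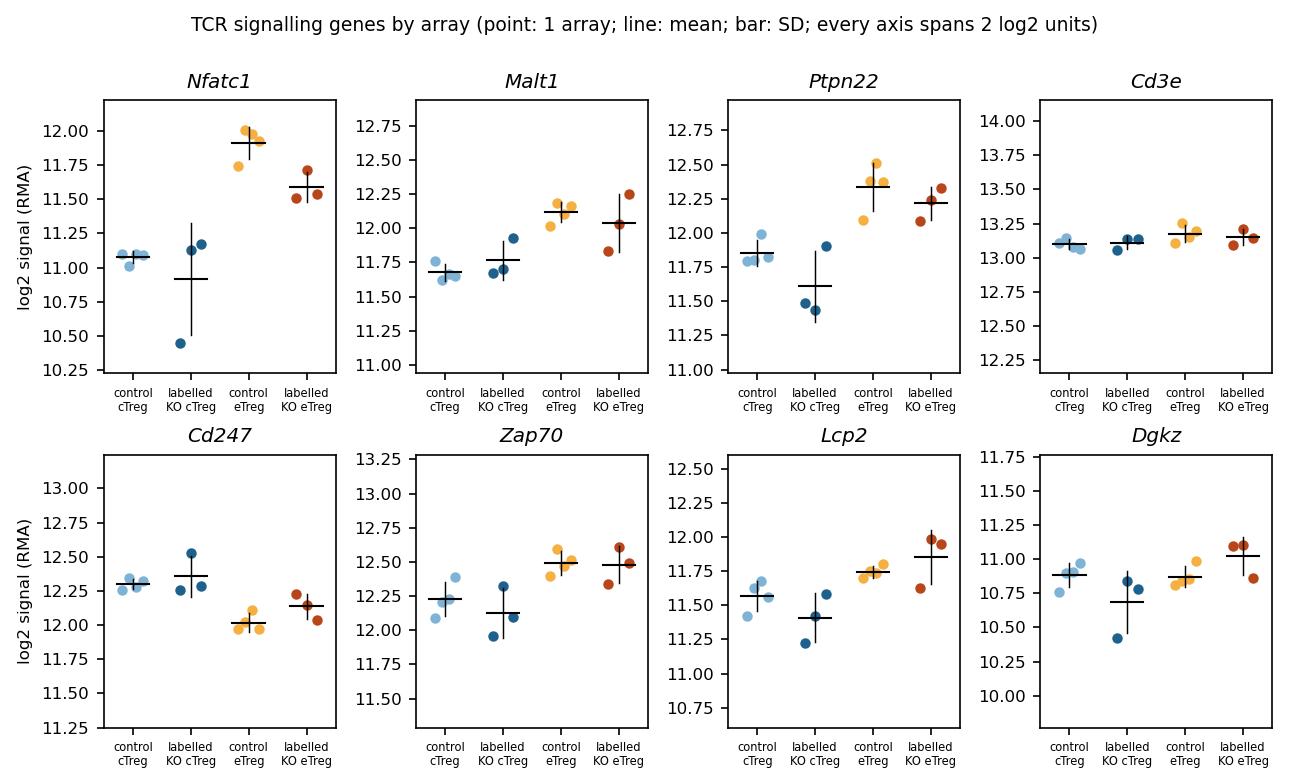
Log2 signal of 8 members on each array, by group, with the mean (line) and SD (bar) of 4 control or 3 labelled KO arrays, on axes that each span 2 log2 units. Nfatc1, Malt1 and Ptpn22 are higher on every control eTreg array than on any control cTreg array, the groups overlap for Cd3e, and KO cTreg 1 is the lowest array for Nfatc1, Zap70, Lcp2 and Dgkz.

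Promoter sequences from RefSeq (GRCm38.p6, 250 bases before to 50 after each annotated start) were read for 31 of the 38 members, as 45 windows. Those of Ptpn22, the only called member among the 31, are shown with both of its annotated starts. Those of Cd3d and Cd3e are shown as receptor chains whose 95% intervals lay within 0.5 either way in every contrast. Each is written from 5′ to 3′ on the strand of the gene. Capitals mark the NFAT core GGAAA and the ETS core GGAAGT on either strand (TTTCC and ACTTCC as read on the other strand).
Ptpn22, first start (chr3:103859545-103859844, plus strand): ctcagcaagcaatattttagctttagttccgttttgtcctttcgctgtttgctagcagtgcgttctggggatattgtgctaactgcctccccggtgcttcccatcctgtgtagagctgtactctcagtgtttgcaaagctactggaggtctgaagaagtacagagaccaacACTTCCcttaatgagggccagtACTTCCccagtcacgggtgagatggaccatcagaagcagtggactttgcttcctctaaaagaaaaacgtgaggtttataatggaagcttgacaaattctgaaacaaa
Ptpn22, second start (chr3:103860027-103860326, plus strand): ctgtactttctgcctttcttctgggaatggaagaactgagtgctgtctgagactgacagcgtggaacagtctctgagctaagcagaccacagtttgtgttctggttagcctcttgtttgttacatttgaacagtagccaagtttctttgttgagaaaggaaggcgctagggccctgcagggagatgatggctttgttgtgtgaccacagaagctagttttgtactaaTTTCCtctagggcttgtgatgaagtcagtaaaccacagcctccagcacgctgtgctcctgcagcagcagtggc
Cd3d (chr9:44981536-44981835, plus strand): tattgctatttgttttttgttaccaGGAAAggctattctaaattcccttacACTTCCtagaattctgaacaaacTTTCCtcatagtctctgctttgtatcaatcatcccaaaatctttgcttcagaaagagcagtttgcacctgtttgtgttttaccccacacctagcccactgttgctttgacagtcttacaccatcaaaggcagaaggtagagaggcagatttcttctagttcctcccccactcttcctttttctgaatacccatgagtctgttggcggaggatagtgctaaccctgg
Cd3e (chr9:45009562-45009861, minus strand): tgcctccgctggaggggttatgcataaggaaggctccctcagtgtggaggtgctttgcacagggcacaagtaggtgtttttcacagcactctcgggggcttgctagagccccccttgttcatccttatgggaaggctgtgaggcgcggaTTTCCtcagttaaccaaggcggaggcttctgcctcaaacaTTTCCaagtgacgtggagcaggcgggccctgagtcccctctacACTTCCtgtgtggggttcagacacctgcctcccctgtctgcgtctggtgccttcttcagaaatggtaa

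The first Ptpn22 window held 2 ETS cores and no NFAT core, and the second held 1 NFAT core and no ETS core. The windows of Cd3d and of Cd3e each held 2 NFAT cores and 1 ETS core. Windows of the other 7 members, among them the called Nfatc1 and Malt1, were not read, so the counts of member windows leave them out. Any member window on chromosome 18, where Nfatc1 and Malt1 lie by their identifiers, was left out, a limit not set on all windows. An NFAT core was present in 31 of the 45 member windows (68.9%) and in 61.3% of the 32851 windows in the table. An ETS core was present in 19 of the 45 (42.2%) and in 23.8% of all windows. The AP-1 letters TGANTCA, searched on both strands, were in none of the 45 and in 7.81% of all. A match of letters is a description of the window and no evidence of binding, and some members have several windows, which are not independent.

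None of the 6 receptor and coreceptor genes was called in any contrast. Cd3e, a signalling chain of the CD3 complex, read 13.11, 13.15, 13.08 and 13.07 on control cTregs and 13.11, 13.25, 13.15 and 13.20 on control eTregs. The groups overlapped, and the difference of 0.08 had a 95% interval of -0.09 to 0.25. Cd3d differed by 0.03, Cd3g by 0.09, the coreceptor Cd4 by 0.05 and the adhesion receptor Cd2 by -0.09. Cd247, the zeta chain that carries most of the phosphorylation sites of the receptor, had the largest difference of the 6. It read 12.26, 12.34, 12.28 and 12.32 on control cTregs and 11.97, 12.02, 12.11 and 11.97 on control eTregs, lower on every eTreg array. Its difference of -0.28 ± 0.090 (SE) was not called (limma, unadjusted P = 0.00675, adjusted P = 0.124), but was with array weights (0.0296) and with an intensity trend and robust prior (0.0398). The difference with the KO label was -0.22 (95% interval -0.44 to 0.00), also with no overlap, and -0.13 without KO eTreg 2 and 3.

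Among the proximal kinases, Lck differed by -0.05 between control eTregs and cTregs, with a 95% interval of -0.26 to 0.16. Fyn, the other Src family kinase of T cells, was higher on every control eTreg array (12.44 to 12.55) than on any control cTreg array (12.19 to 12.33), by 0.23 (limma, unadjusted P = 0.0203, adjusted P = 0.242). With the KO label it differed by -0.02 (-0.12 without KO eTreg 2 and 3), and the interaction was -0.25 (95% interval -0.54 to 0.03). Zap70, the kinase that docks on the phosphorylated receptor, read 12.09, 12.21, 12.23 and 12.39 on control cTregs and 12.39, 12.60, 12.47 and 12.51 on control eTregs. It was higher by 0.26 in controls (limma, adjusted P = 0.267) and by 0.35 in arrays labelled KO (0.168). Both differences were without overlap and neither was called. Without KO eTreg 2 and 3 the second was 0.21. Ptprc, the phosphatase CD45 that frees Lck for activation, differed by -0.10 and -0.07.

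The 9 adaptor and second messenger genes mostly lay slightly below 0 in control eTregs, with 8 of 9 lower, a median of -0.08 and no gene called. Rasgrp1, which passes diacylglycerol signals to Ras, showed the largest decrease in value among these. It read 12.28, 12.23, 12.28 and 12.23 on control cTregs and 12.04, 12.01, 11.93 and 11.83 on control eTregs, and no arrays overlapped. The difference of -0.30 ± 0.12 (SE) was not called (limma, adjusted P = 0.237), but was with array weights (-0.34, 0.0376). The KO arrays gave -0.14 (0.704), and 0.03 without KO eTreg 2 and 3. Prkcq, the protein kinase C theta that acts upstream of Bcl10 and Malt1, differed by -0.18 in controls and by -0.19 in arrays labelled KO, where the value was 0.01 without KO eTreg 2 and 3. The Ras exchange factor Sos1 differed by -0.21 and -0.10, the exchange factor Vav1 by -0.19 and -0.09, Lat by -0.08 and -0.06, the adaptor Grb2 by -0.08 and 0.15, the adaptor Nck1 by -0.06 and -0.26, and the phospholipase Plcg1 by -0.01 and -0.06. For Nck1 the 95% interval in arrays labelled KO ran from -0.65 to 0.14, the widest of these, and KO eTreg 1 read 9.75 against 10.37 and 10.26 on KO eTreg 2 and 3. Without those 2 arrays, the KO difference was -0.63 for Nck1, -0.09 for Grb2, -0.03 for Sos1 and -0.20 for Vav1.

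Lcp2, the adaptor SLP-76, was the 1 gene of this group that was higher in eTregs of both labels. It read 11.42, 11.62, 11.67 and 11.56 on control cTregs against 11.70, 11.75, 11.73 and 11.80 on control eTregs, a difference of 0.18 (limma, adjusted P = 0.583). On KO arrays it read 11.22, 11.42 and 11.58 in cTregs and 11.63, 11.98 and 11.95 in eTregs. The difference of 0.44 ± 0.12 (SE) just missed the call (limma, adjusted P = 0.0777). It passed with an intensity trend and robust prior (0.0444), with array weights (0.0435), with the replicate number as a block (replicate block, 0.0388) and without KO eTreg 1 (0.56, 0.0128). Without KO eTreg 2 and 3 it was 0.22. SLP-76 is also made by myeloid cells, whose markers were highest on KO eTreg 2 and 3. Their part in this difference was not tested.

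The remaining brakes lay near 0 in controls. The ubiquitin ligases Cbl and Cblb differed by -0.06 and -0.04 and Ubash3a, a phosphatase of the TULA family, by 0.04. The inhibitory receptor Cd5, whose level on T cells is commonly read as a record of TCR signal strength, read 13.27 to 13.32 on control cTregs and 13.29 to 13.34 on control eTregs, a difference of 0.02 with a 95% interval of -0.15 to 0.18. Of the diacylglycerol kinases, which remove the second messenger that Rasgrp1 and Prkcq need, Dgka differed by -0.12 and Dgkz by -0.01.

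For Dgkz the KO arrays of both subsets were separated. It read 10.42, 10.84 and 10.78 in KO cTregs and 11.10, 11.11 and 10.86 in KO eTregs, with no overlap and a difference of 0.34 (limma, unadjusted P = 0.0148, adjusted P = 0.204). Without KO eTreg 2 and 3 it was 0.42. In controls the values were 10.76 to 10.97 in cTregs and 10.81 to 10.98 in eTregs. The interaction was 0.35 ± 0.16 (SE) (limma, unadjusted P = 0.0489, adjusted P = 0.814).

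Of the genes with both roles, Themis, an adaptor that tunes TCR signals during thymic selection, differed by -0.30 in controls (95% interval -0.60 to 0.00, not called) and by -0.11 in arrays labelled KO. The adaptor Sh2d2a differed by 0.06 and -0.13. The receptor Cd6 differed by 0.00 and 0.07.

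Over all members in arrays labelled KO, 2 of 38 members were called between eTregs and cTregs (Nfatc1 and Ptpn22, both risen), where 2.43% of all transcript clusters were. The same 2 passed the study threshold, against 5.81% of all. The 95% interval lay within 0.5 either way for 30 of 38, against 60.5% of all, and arrays were fully separated with eTregs higher for 6, against 6.46%, and with eTregs lower for 2, against 7.49%. The median change was -0.05 for activators and 0.00 for brakes, beside -0.04 over all transcript clusters. Both calls were lost when only the groups compared were fitted (Nfatc1 0.257, Ptpn22 0.203) or array medians were subtracted (0.0692 and 0.0598).

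**Figure D3:**
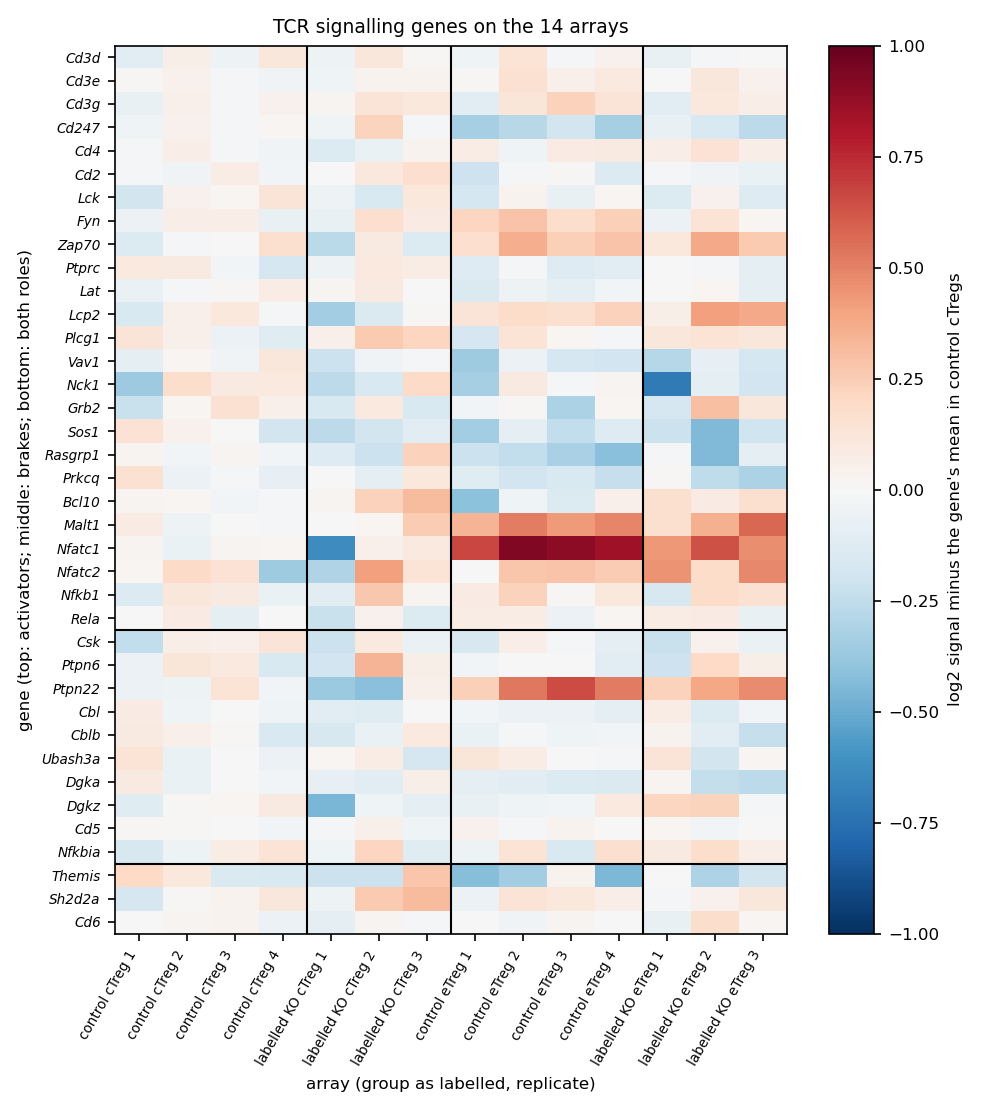
Log2 signal of the 38 genes on the 14 arrays, each relative to the mean of that gene in control cTregs (red higher, blue lower, scale from -1 to 1). Nfatc1, Malt1 and Ptpn22 lie above that mean on all 7 eTreg arrays and Cd247 below it, although Malt1 and Cd247 are pale on KO eTreg 1. Some other genes, such as Zap70 and Lcp2, also lie above it on all 7, and most other rows are pale.

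The second question was whether the Atg14 label goes with a change in the pathway. In eTregs, 0 of the 38 members were called between arrays labelled KO and controls, where 0.117% of all transcript clusters were. At the study threshold none passed, against 2.72% of all. The 95% interval lay within 0.5 either way for 34 of 38, against 71.9% of all, and arrays did not overlap for 3 (Fyn, Bcl10 and Nfatc1), against 6.85%. The median difference was 0.00 for activators and -0.02 for brakes, beside -0.02 over all transcript clusters.

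Bcl10 was higher in KO eTregs, at 9.69, 9.61 and 9.69 against 9.12, 9.48, 9.39 and 9.58 in control eTregs, by 0.27 ± 0.11 (SE) (limma, unadjusted P = 0.0308, adjusted P = 0.542). Its level of 9.53 ± 0.027 (SD, n = 4) in control cTregs and 9.72 ± 0.15 (SD, n = 3) in KO cTregs differed in the same direction, by 0.19 (adjusted P = 0.9999). Nfatc1 was lower in KO eTregs, at 11.51 to 11.72 against 11.74 to 12.01, by -0.32 ± 0.15 (SE) (limma, unadjusted P = 0.0447, adjusted P = 0.602). Without KO eTreg 2 and 3 this difference was -0.40 (0.733). Fyn was lower in KO eTregs by -0.20 (0.644). Without KO eTreg 2 and 3 the differences of Bcl10 and Fyn were 0.30 and -0.29, and that of Nck1, -0.27 over all arrays, was -0.65 (0.370). None of the 3 differences passed adjustment.

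In cTregs, 0 of 38 members were called, where 0.0450% of all transcript clusters were. None passed the study threshold, against 0.576% of all. The 95% interval lay within 0.5 either way for 37 of 38, against 76.1% of all, and arrays overlapped for all 38, whereas 5.05% of all transcript clusters had no overlap. The exception in its interval was Ptpn22, at 11.48, 11.43 and 11.91 in KO cTregs and 11.79 to 11.99 in controls, with a difference of -0.24 and a 95% interval of -0.52 to 0.03. The median difference was 0.01 for activators and -0.04 for brakes, beside 0.02 over all transcript clusters.

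**Figure D4:**
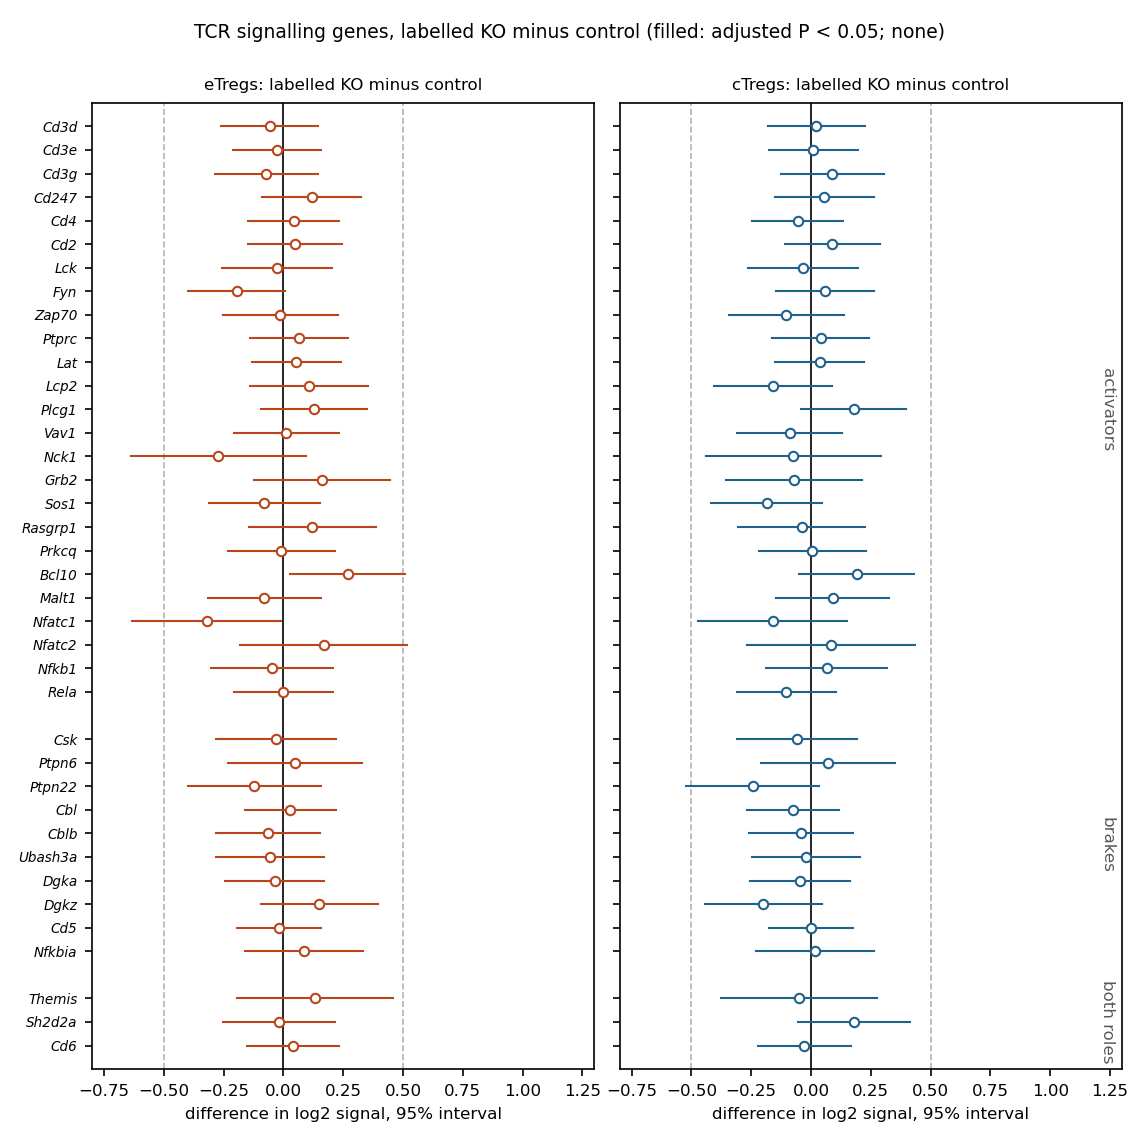
Difference in log2 signal between arrays labelled KO and controls for each of the 38 genes, with its 95% interval, in eTregs (left) and cTregs (right), with dashed lines at 0.5 either way. No point is filled because no adjusted P was below 0.05, and intervals of 34 genes in eTregs and 37 in cTregs lie within the dashed lines.

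The interaction, which is the genotype effect in eTregs less that in cTregs, was called for 0 of 38 members, and 0% of all transcript clusters were called. None of the members passed the study threshold, against 3.05% of all. Only 26 of 38 intervals lay within 0.5, against 32.7% of all, because this contrast uses all 4 groups and its half-width had a median of 0.32. For a member with that half-width, the interval of a smaller interaction includes 0. The interaction of Dgkz, 0.35, was larger and was not called either (limma, adjusted P = 0.814).

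The wider pathway was read from lists of other genes. Of 38 other activators, 4 were called in control eTregs against cTregs and all 4 fell, where 1.20% of all transcript clusters fell. They were Txk, a Tec family kinase (by -0.72, adjusted P = 0.0202), Trat1, an adaptor that binds the receptor complex (-0.46, 0.0187), Ppp3ca, the catalytic subunit of calcineurin (-0.45, 0.0374), and Nras, a Ras protein (-0.42, 0.0420). The median of the list was -0.07. In arrays labelled KO none of the 38 was called in limma, against 2.43% of all. Ppp3ca differed there by -0.43 (0.118) and Txk by -0.75, and by -0.17 and -0.29 without KO eTreg 2 and 3.

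Of 34 other brakes, 3 rose and 2 fell in control eTregs, where 2.38% of all transcript clusters rose and 1.20% fell. Lax1, an adaptor that restrains lymphocyte signalling, rose by 0.68 (adjusted P = 0.000608), Sla, the adaptor SLAP that lowers receptor levels, by 0.53 (0.0252) and Spry1, an inhibitor of Ras signalling, by 0.58 (0.0450). Dusp10, a phosphatase of p38 and JNK, fell by 0.62 (0.000850), and Pag1, which anchors Csk at the membrane, fell by 0.47 (0.00870). The same 2 genes fell in arrays labelled KO (Dusp10 by 0.55, 0.0120, and Pag1 by 0.44, 0.0453), against 0.374% of all. There, Lax1 rose by 0.55 (0.0148) and Rnf128, the ubiquitin ligase GRAIL, by 1.12 (0.00362), against 2.06% of all. Of these 4, Rnf128 alone was called without KO eTreg 2 and 3 (1.22, 0.0321), and the differences were 0.43 (0.470) for Lax1, -0.40 (0.431) for Dusp10 and -0.39 (0.541) for Pag1. Rnf128 was a dim gene, at 6.09 to 6.82 in KO cTregs and 7.20 to 7.91 in KO eTregs, and in controls its difference was 0.20 (0.756). Its interaction was 0.92 (limma, unadjusted P = 0.00186, adjusted P = 0.672).

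Genes that TCR signals are known to induce were read from a list of 14. Of these, 6 rose and 1 fell in control eTregs, against 2.38% and 1.20% of all transcript clusters, with a median change of 0.30, where the median of the 38 members was -0.01. With the KO label the median of the 14 was 0.09, and the median of their interactions was -0.13. Nfil3, a transcription factor, read 8.67, 8.92, 8.86 and 8.81 on control cTregs and 10.41, 10.79, 10.33 and 10.55 on control eTregs. It rose by 1.70 ± 0.16 (SE), or 3.26-fold (limma, adjusted P = 1.61e-05). Irf4, which eTregs need to differentiate, rose by 0.86 (0.00958), its partner Batf by 0.64 (0.00352), the costimulatory receptor Tnfrsf9 by 0.81 (0.00639) and the nuclear receptor Nr4a2 by 0.51 (0.00614). The sixth, named outside the rule of 5 per direction, was Egr2. Myc, a driver of cell growth, fell by 0.58 (0.00934). In arrays labelled KO only Nfil3 was called (1.31, 0.00117), against 2.06% of all that rose, and it was not without KO eTreg 2 and 3 (0.78, 0.101). Between genotypes, none of the 14 was called in eTregs, against 0.117% of all, or in cTregs, against 0.0450%.

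**Figure D5:**
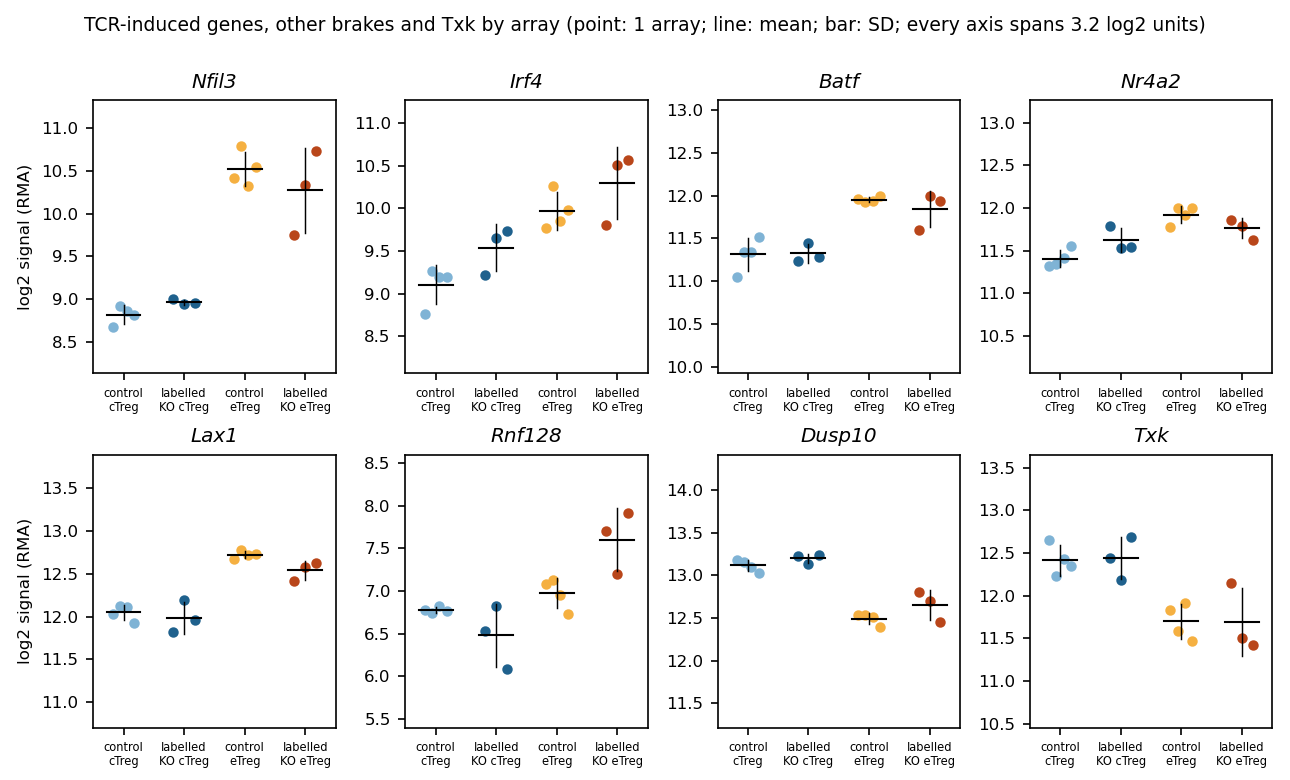
Log2 signal of 4 TCR-induced genes (Nfil3, Irf4, Batf, Nr4a2), 3 other brakes (Lax1, Rnf128, Dusp10) and the kinase Txk on each array, by group, with mean (line) and SD (bar), on axes that each span 3.2 log2 units. Nfil3, Irf4, Batf, Nr4a2 and Lax1 are higher, and Dusp10 and Txk lower, on every control eTreg array than on any control cTreg array, and KO eTreg 1 is the KO eTreg array nearest to cTregs for Nfil3, Irf4, Batf and Txk.

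Cd44, which was used in the sort, moved in the same contrast. It read 9.46 to 9.66 on control cTregs and 10.95 to 11.35 on control eTregs, a rise of 1.61 (limma, adjusted P = 0.000121). In arrays labelled KO, Cd44 rose by 1.80 (0.000360), with 10.60 on KO eTreg 1 against 11.52 and 11.49 on KO eTreg 2 and 3, and by 1.20 without those 2 (0.0485).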

How the data were processed

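RNA of sorted Tregs (RNeasy Micro kit, Whole Transcript Plus labelling) was read on 14 arrays of the Clariom S mouse type. The authors summarised probes by robust multi-array average (RMA) in Affymetrix Expression Console 1.1 and deposited log2 signals. RMA normalises over all arrays, so a difference is relative to the bulk of transcripts. Of 28846 entries, 6640 control probe sets and 3 with a blank symbol were left out, and 22203 transcript clusters were tested without a filter on signal. No genome build is named for the array identifiers, so coordinates are printed for RefSeq promoter windows alone.

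Groups were taken from the labels. A linear model with 4 group means was fitted to all 14 arrays in R 4.3.3 by the lmFit and eBayes functions of limma 3.58.1, with 10 residual degrees of freedom and 5.65 prior ones, and 5 contrasts were drawn from it. P values are two-sided and adjusted by Benjamini-Hochberg over all 22203 transcript clusters. The code was tested on simulated data. All 38 members are named, and of the lists of other activators, other brakes and TCR-induced genes up to 5 called genes per direction with the smallest adjusted P, beside Atg14, Foxp3 and Cd44. Another sort marker is not reported here. Of each list of other cell types up to 3 of the brightest genes may be named, and Il2ra was named after its values were seen. The members, roles and lists were chosen with earlier results of these data known. Comparisons that share a group of arrays are not independent. Precision is limited by how many arrays there are. Alternatives were array centring by medians or 75th percentiles, leaving out the dimmer part of the transcript clusters, and only the groups compared. Others were an intensity trend with a robust prior, array weights, the replicate block, and the mean of the rows of a gene. A size limit beside the adjusted P and leaving out each array were also used. Leaving out KO eTreg 2 and 3 together was added after the data were seen. Array scans were not used here.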

Additional observations from a re-analysis of the deposited data

Results flagged for a closer look

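In 7 of 76 groups of 4 control arrays (38 genes in cTregs and in eTregs), 1 array lay far from the other 3, at a gap that exceeds the Dixon 95% critical value as a share of the range, where chance marks about 1 group in 20. In control cTregs these were Nck1 on array 1 (lowest, 10.09, next 10.55), Nfatc1 on array 2 (lowest, 11.01, next 11.10) and Ptpn22 on array 3 (highest, 11.99, next 11.83). In control eTregs they were Cd4 on array 2 (lowest, 12.56, next 12.67), Ptprc on array 2 (highest, 13.46, next 13.36), Grb2 on array 3 (lowest, 11.14, next 11.42) and Nfatc2 on array 1 (lowest, 10.28, next 10.54). Without control cTreg 2 the rise of Nfatc1 in control eTregs stayed called, and without control cTreg 3 that of Ptpn22 did. Groups of 3 arrays were not examined in this way.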

How the results depend on the processing

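Between control eTregs and cTregs, Malt1 and Ptpn22 lost their calls with array medians subtracted. Neither had a change of 0.5 or more, so both also lost them when that was asked beside the adjusted P. Cd247 gained a call with array weights and with the intensity trend and robust prior, and Rasgrp1 with array weights. With 1 array left out, Nfatc1 kept its call in controls, and Malt1 and Ptpn22 lost theirs for the arrays named above. In arrays labelled KO, Nfatc1 and Ptpn22 lost their calls with only the groups compared or with array medians subtracted. Each also lost its call without some single KO arrays, as given above. Lcp2 gained a call in the alternatives named for it. The number past the study threshold moved with 1 array left out, in both labels, and with array weights in controls. Between genotypes in eTregs, Nck1 differed by -0.65 without KO eTreg 2 and 3. Medians of activators and brakes stayed between -0.09 and 0.07 throughout. The cause of these changes was not tested. Replicate numbers are shared across groups but are not stated to mark shared hosts, although the study's text gives the same numbers of chimeras for both subsets. Same-numbered cTreg and eTreg arrays deviated together with correlations of 0.071 to 0.22 in controls and 0.044 to 0.30 in arrays labelled KO. These values do not settle whether a number marks a host. The main fit left the arrays unpaired, and the replicate block is the alternative that pairs them by number. As a hint from the data, 6 of 7 cTreg arrays correlated best with the eTreg array of their own number, and 4 of 6 control arrays with the KO array of their number and subset (correlations of 0.010 to 0.29). With the replicate block 3 members were called between subsets in controls, 3 with the KO label and 0 between genotypes. None of the 5 calls between subsets changed direction in any alternative, but differences that were not called changed sign in some alternative for 11 of 38 members between subsets in controls, 17 with the KO label, 20 between genotypes in eTregs and 19 in cTregs. The mean of the rows of a gene was also fitted, although no member has several rows, and no call of a member changed with it.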
